A study of Mus musculus with 6 samples.

Results

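Cytokine receptor genes were read in LSK cells, the Lin- Sca1+ c-Kit+ cells of mouse bone marrow among which the haematopoietic stem cells and multipotent progenitors are found. The set was a list of 42 genes for interleukin receptors and related haematopoietic receptors, and a gene was read from the probe set with the highest mean among those assigned to this gene alone. In this way 39 of the 42 members were measured among 18193 genes in all. Il2rg, Il1rl1 and Prlr had no such probe set and were not analysed here. Cells came from bone marrow of C57BL/6 mice aged 6 to 7 weeks. The wild-type (WT) group had 3 samples of 1 mouse each. The IkL/L group had 3 samples, each from a pool of 2 mice homozygous for a hypomorphic mutation of Ikzf1, the gene of the transcription factor Ikaros, which lowers functional Ikaros protein in all cells that make it. RNA was hybridised to Affymetrix mouse genome arrays, and values are on the log2 scale of RMA (robust multi-array average), so that a difference of 1 is a 2-fold change.

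Cytokine receptors sit at the cell surface as pairs or larger assemblies of chains. In many of them a private chain binds the ligand. A shared chain, such as the common beta chain, the common gamma chain or gp130, then carries the signal to Janus kinases and STAT proteins. Others, such as those for growth hormone and erythropoietin, are built from a single kind of chain. Receptors for IL-1, IL-18 and IL-17 signal through adaptors of their own. In bone marrow progenitors cytokine receptors are known for setting which survival and growth factors a cell can answer: IL-7 for lymphoid cells, IL-3 and GM-CSF for granulocytes, monocytes and mast cells, and erythropoietin for red cells.

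WT 2 lay away from the rest in a principal component analysis, at -52.7 on component 1 (39.3% of variance), with the other WT arrays at -18.6 and 3.6 and the IkL/L arrays at 19.6 to 28. Without WT 2, Ghr and Il17rb were called and Il17rc was not. Ikzf1 itself fell by 0.68 on the log2 scale (adjusted p = 0.0307 in limma); it was at 11.57, 11.59 and 11.44 in WT 1, 2 and 3 and at 10.77, 10.85 and 10.93 in IkL/L 1, 2 and 3. None of the 8 measured LSK markers passed, with differences from -0.88 (Flt3) to 0.69 (Procr). At an unadjusted p under 0.05, 1 was higher (12.5%, beside 5.83% of all genes) and 2 were lower (25%, beside 5.35%). Without WT 3, 1 LSK marker fell at an adjusted p under 0.05, and none passed in the other fits with 1 array left out. Kit, used in the sort, lay between 11.07 and 11.50 on all arrays, and Ly6a, the gene of Sca1, was not read from a probe set of its own. Marker lists of several lineages had higher means in the IkL/L arrays and are given beside receptors used in the same lineages. Whether markers and receptors moved together was not tested. The means of other lists ran from 6.99 to 7.76 in WT and 8.48 to 8.82 in IkL/L for megakaryocyte markers (3 of 8 rose), from 6.20 to 6.32 and 6.77 to 7.28 for dendritic cell markers (2 of 7 rose) and from 4.40 to 5.05 and 4.74 to 5.33 for markers of mature neutrophils and macrophages (2 of 12 rose). Over all genes 0.748% rose. Not all markers in these lists were higher. The dendritic list includes the MHC class II pathway genes Cd74, H2-Aa, H2-Ab1 and H2-Eb1, so that its mean is not a measure of dendritic cells alone. In the dendritic list 1 marker was below 0 (-0.58), wholly under WT and at an unadjusted p under 0.05. In the mature list 4 markers were below 0, 1 lower marker had an unadjusted p under 0.05, and the array means overlapped between the groups. This list was also dim. Both group means lay under the array medians of 4.79 to 4.88 in 4 of the 12 markers, and 1 had a mean of at least 6. The counts of markers that rose rest on few arrays. With 1 array left out, 0 to 3 megakaryocyte markers rose (0 in the fit lacking IkL/L 1, and 1 in those lacking WT 1 or IkL/L 2), 0 to 3 dendritic cell markers (0 without any 1 WT array or IkL/L 1) and 0 to 1 of the mature markers (0 without the same arrays). In bulk RNA, fewer cells of a type and less RNA per cell cannot be told apart. The labels do not say whether the mice were littermates, and the p-values take only sample-to-sample spread into account. Pool size differed with genotype, so that this spread is over single mice in WT and over pools in IkL/L. Effects of pooling and of genotype cannot be told apart.

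Of the 39 receptors, 2 rose in IkL/L cells, Ghr and Il17rc, and 1 fell, Il17rb, at an adjusted p under 0.05 in limma. That is 7.69% of the receptors, beside 0.989% of all 18193 genes, of which 0.748% rose and 0.242% fell. All 3 were placed in the group named receptors used mainly outside blood, by a grouping made for this comparison. The name is not a measure of expression here and does not exclude use in blood cells. Of its 10 measured genes, 4 lay above the array medians in both groups, among them Il17re at 9.04 to 9.88. The list and the grouping were both chosen with earlier results of these data known. These shares and the group in which the calls fall are therefore a description only. None of the 11 measured lymphoid receptors, the 8 granulocyte, monocyte and mast cell receptors, the erythroid receptor Epor and the 9 broadly used receptors passed. At an unadjusted p under 0.05 there were 10 receptors higher (25.6%, beside 5.83% of all genes) and 6 lower (15.4%, beside 5.35%). Among these were 2 higher and 2 lower lymphoid receptors, 2 higher granulocyte, monocyte and mast cell receptors, Epor, and 2 higher and 2 lower broadly used receptors. The IkL/L values lay wholly above the WT values in 11 receptors (28.2%, beside 7.62%) and wholly below them in 7 (17.9%, beside 9.59%). Differences below 0 made up 43.6% of the receptors and 55.5% of all genes. The median difference was 0.02 over the receptors and -0.02 over all genes, with an interquartile range of -0.20 to 0.34 for the receptors and -0.12 to 0.09 for all genes. Low values cannot be told from background in RMA data. In 12 receptors both group means lay under the array medians of 4.79 to 4.88, and 23 receptors had a mean of at least 6 over all arrays. Ghr and Il17rc reached that mean through their IkL/L values and Il17rb missed it through its own, so that the share called above it (8.7%, beside 1.4% of the 9232 genes as bright) is not read as a result.

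**Figure D1:**
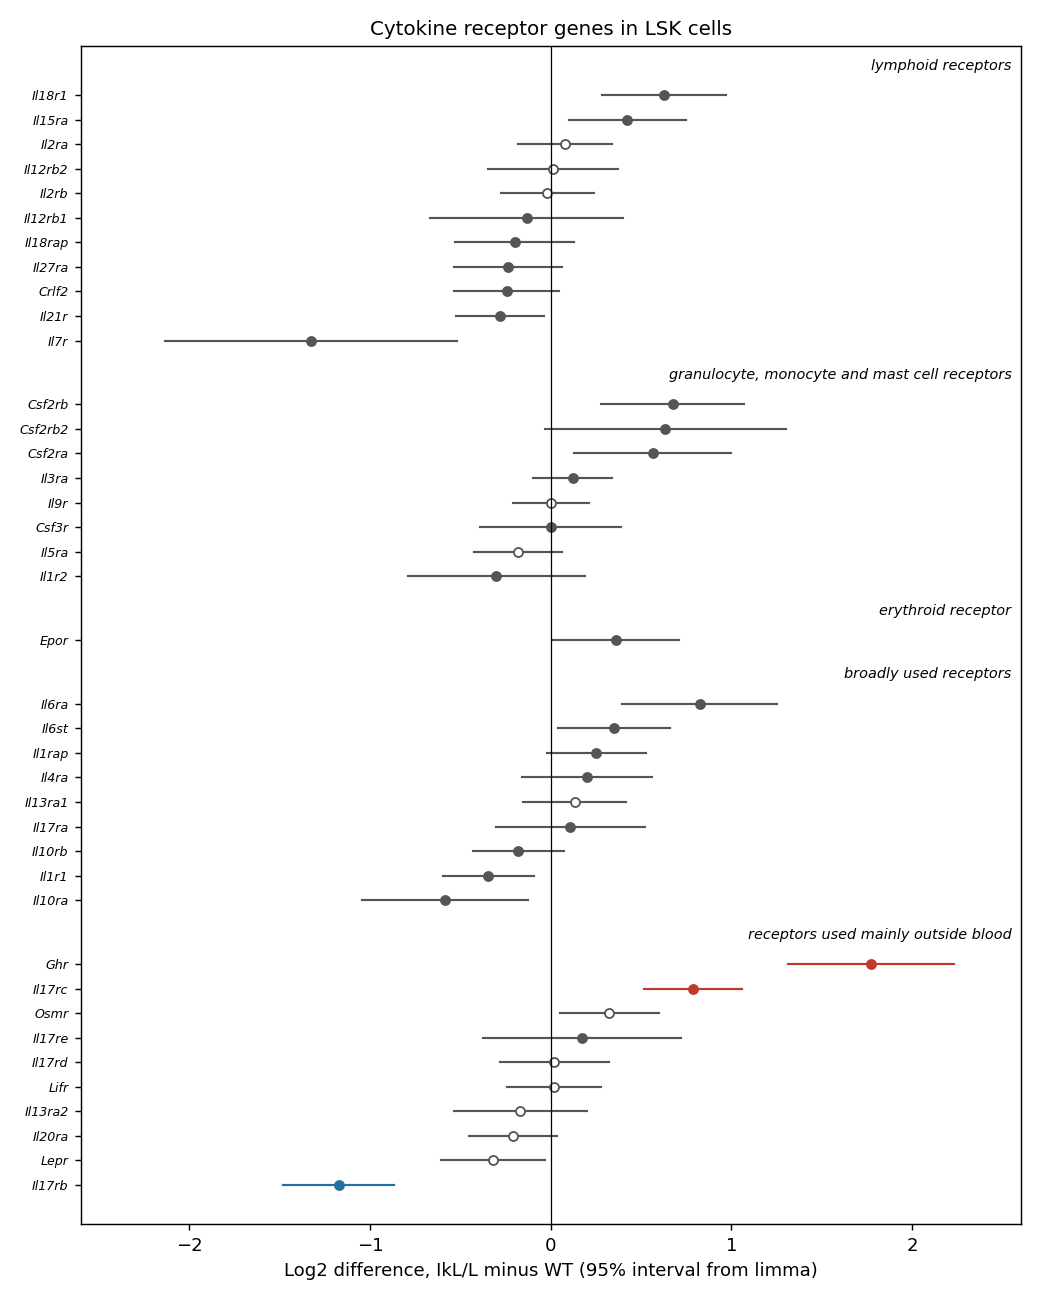
Log2 difference between IkL/L and WT (horizontal axis, points) with its 95% interval from limma (bars) for the 39 measured receptors (vertical axis), grouped by lineage use. Red points rose and blue points fell at an adjusted p under 0.05, and open points mark the 12 receptors with both groups under the array medians. Ghr (1.77), Il17rc (0.79) and Il17rb (-1.17) are the coloured points, and Il7r (-1.33) has a wide interval.

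The receptor with the largest difference was Ghr, the growth hormone receptor, a single-chain class I receptor best known from liver. Ghr stood at 5.14, 5.68 and 5.42 in WT 1, 2 and 3 and at 7.11, 7.56 and 6.89 in IkL/L 1, 2 and 3. All IkL/L arrays lay more than 1 unit above all WT arrays, and the WT values were not far above the array medians. The mean rose 3.42-fold from 5.42 ± 0.27 to 7.19 ± 0.34 (SD, n = 3), a log2 difference of 1.77 ± 0.20 (standard error) with an adjusted p of 0.0127 in limma. A second probe set of Ghr gave 4.20 and 4.94, a difference of 0.74 (adjusted p = 0.182) in which the groups did not overlap either, and the dimmest gave 0.02 at a WT mean of 3.42. Without WT 1 or IkL/L 1 the adjusted p of Ghr was 0.0731 and 0.0723, at differences of 1.64 and 1.81, and it passed in the other 4 fits with 1 array left out.

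IL-17 receptors are built from IL-17RA, the shared chain, with a partner that sets the ligand. IL-17RB gives the receptor for IL-25, IL-17RC that for IL-17A and IL-17F, and IL-17RE that for IL-17C. Il17rb stood at 6.58, 6.52 and 6.33 in WT and at 5.32, 5.50 and 5.08 in IkL/L. All IkL/L values lay below all WT values, and they were close to the array medians. The mean fell by 1.17 on the log2 scale, 2.26-fold, from 6.48 ± 0.13 to 5.30 ± 0.21 (SD, n = 3, adjusted p = 0.0130 in limma). Il17rb has 1 probe set, and it did not pass without WT 1 (-1.12, adjusted p = 0.0844) or IkL/L 1 (-1.18, 0.0787). Il17rc stood at 5.84, 5.75 and 5.73 in WT and at 6.40, 6.76 and 6.52 in IkL/L. The groups did not overlap here either, with the IkL/L arrays on the higher side. The mean rose 1.73-fold from 5.77 ± 0.06 to 6.56 ± 0.19 (adjusted p = 0.0361 in limma). The call of Il17rc was lost with any 1 array left out, at differences of 0.69 to 0.87 and an adjusted p of 0.0784 to 0.143, and its other probe set, at a WT mean of 3.29, gave 0.02.

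The chains these partner with did not pass. Il17ra lay at 9.71, 9.64 and 10.30 in WT and at 9.88, 10.12 and 9.97 in IkL/L, so that the groups overlapped. Its difference was 0.11 with a 95% interval from -0.31 to 0.52. Il17re, whose gene lies next to Il17rc on chromosome 6, gave 0.17 (-0.37 to 0.72) from 9.86, 9.18 and 9.04 in WT and 9.46, 9.88 and 9.27 in IkL/L, and Il17rd, a chain that modulates signalling, gave 0.02 under the array medians. Traf3ip2, which encodes Act1, the adaptor that IL-17 receptors recruit, fell from 7.32 ± 0.14 to 6.61 ± 0.07 (SD, n = 3), with 7.16, 7.43 and 7.37 in WT and 6.67, 6.62 and 6.54 in IkL/L. The log2 difference was -0.71 with an adjusted p of 0.0379 in limma, and the call was lost with any 1 array left out (0.0838 to 0.149), with an intensity trend (0.0581) and with the replicate number as a block (0.123). Traf6, the ubiquitin ligase that acts with Act1 and with the IL-1 receptors, stood at 7.80 to 7.92 in WT and 7.50 to 7.56 in IkL/L, without overlap, and gave -0.34 (adjusted p = 0.245). The ligand gene Il17a was under the array medians in both groups, at 3.82 and 3.80.

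**Figure D2:**
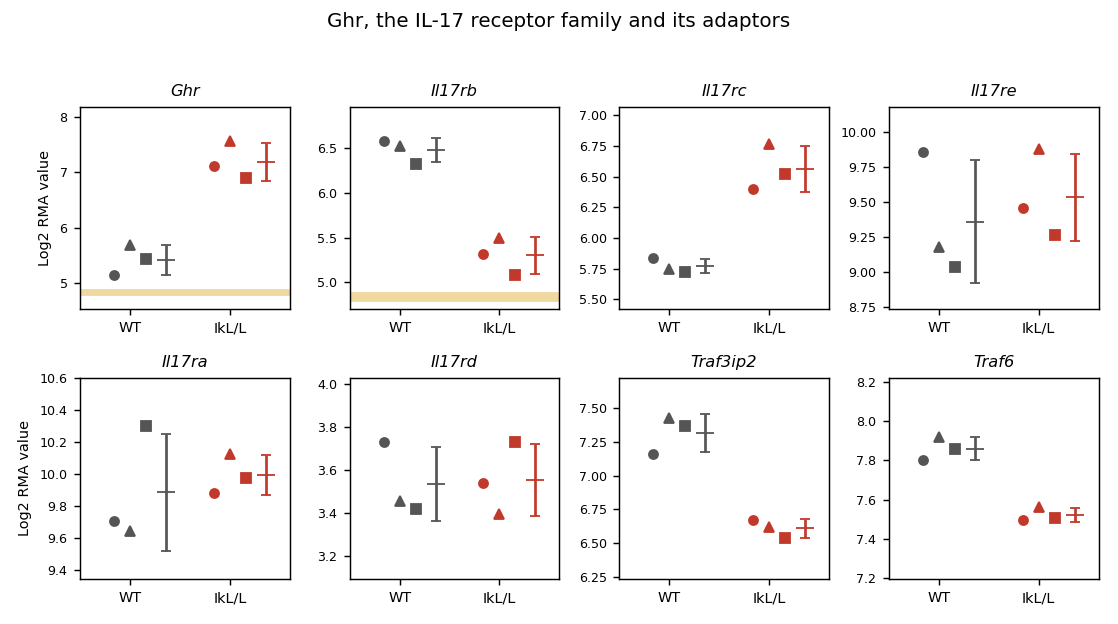
Ghr, the IL-17 receptor chains and the adaptors Traf3ip2 and Traf6 in WT (grey) and IkL/L (red) arrays, as log2 RMA values on vertical axes that have their own range in each panel and no zero. Circles, triangles and squares are replicates 1, 2 and 3, bars show the mean and SD of 3 arrays, and the yellow band spans the array medians. Ghr and Il17rc are higher and Il17rb, Traf3ip2 and Traf6 lower on every IkL/L array, while Il17re, Il17ra and Il17rd overlap.

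The sequence before the transcription start is shown for the 3 receptors that passed, since Ikaros binds DNA through a GGGAA core. The windows are the 250 bases upstream of the start in RefSeq on GRCm38.p6, read 5′ to 3′ on the strand of the gene, with GGGAA or its reverse complement TTCCC in capitals. They lie at chr15:3581843-3582092 and chr15:3583353-3583602 (both minus strand) for the 2 starts of Ghr, at chr6:113471205-113471454 (plus strand) for Il17rc and at chr14:30008897-30009146 (minus strand) for Il17rb.
Ghr, first window: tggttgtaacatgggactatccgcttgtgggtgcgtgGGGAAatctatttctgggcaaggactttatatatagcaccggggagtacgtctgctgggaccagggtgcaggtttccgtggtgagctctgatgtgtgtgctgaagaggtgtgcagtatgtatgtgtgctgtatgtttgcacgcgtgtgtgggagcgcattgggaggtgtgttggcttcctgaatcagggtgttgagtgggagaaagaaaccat
Ghr, second window: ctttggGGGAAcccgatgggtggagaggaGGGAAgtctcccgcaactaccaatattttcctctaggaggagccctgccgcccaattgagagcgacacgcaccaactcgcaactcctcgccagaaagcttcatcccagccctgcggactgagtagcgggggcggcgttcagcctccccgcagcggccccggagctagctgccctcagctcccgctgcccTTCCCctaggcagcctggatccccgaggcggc
Il17rc: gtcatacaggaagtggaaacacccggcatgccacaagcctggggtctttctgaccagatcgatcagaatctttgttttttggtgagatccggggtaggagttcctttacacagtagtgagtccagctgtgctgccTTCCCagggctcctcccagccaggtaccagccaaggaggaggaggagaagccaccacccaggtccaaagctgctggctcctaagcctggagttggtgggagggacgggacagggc
Il17rb: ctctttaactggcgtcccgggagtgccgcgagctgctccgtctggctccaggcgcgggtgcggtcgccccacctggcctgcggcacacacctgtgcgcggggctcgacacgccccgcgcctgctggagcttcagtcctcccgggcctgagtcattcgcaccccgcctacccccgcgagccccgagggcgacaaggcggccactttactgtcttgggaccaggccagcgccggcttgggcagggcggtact

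The Ghr windows hold the core 1 and 3 times, that of Il17rc once and that of Il17rb not at all. Of 32851 such windows over all genes, 56.2% hold it on either strand. Of the 39 windows found for 32 measured receptors, 61.5% hold it; the other 7 receptors, among them Csf2rb, Il17ra and Il10ra, had no window. The AGGAA motif, which the authors report at Ikaros peaks in thymocytes, was not marked or counted. A match of these letters is a description of the sequence and not a binding site.

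Lymphoid receptors differed from one another. Il7r, the chain that binds IL-7 and, with Crlf2, TSLP, lay at 7.54, 7.79 and 6.53 in WT and at 5.94, 6.46 and 5.48 in IkL/L. All IkL/L values were below the WT values, but WT 3 lay just above IkL/L 2. The difference was -1.33 ± 0.35 (standard error), from 7.29 ± 0.67 to 5.96 ± 0.49 (SD, n = 3), with an adjusted p of 0.241 in limma, and so it was not called. It did pass without WT 3 (-1.71, adjusted p = 0.0499) and, with all arrays, when the replicate number was a block (0.034). The labels do not say that same-numbered samples are pairs. The dimmer probe set of Il7r gave -0.52 (0.317) and did not overlap between the groups. Crlf2, the TSLP receptor chain, lay at 11.13, 11.20 and 11.31 in WT and at 10.83, 11.20 and 10.87 in IkL/L, a difference of -0.24 (-0.53 to 0.04), with WT 2 and IkL/L 2 both at 11.20.

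Tslp, the ligand that these chains share, rose in IkL/L cells. Its WT values of 4.22, 4.19 and 4.26 lay under the array medians and its IkL/L values of 5.38, 6.05 and 5.60 above them. The log2 difference was 1.45 (adjusted p = 0.013 in limma), given without a fold because the WT level cannot be told from background. The call was lost without WT 1 (0.0844). Il7, the other ligand of IL-7R, was under the array medians in both groups (-0.05).

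2 lymphoid receptors had higher values in every IkL/L array. Il18r1, the ligand-binding chain for IL-18, lay at 6.61, 7.04 and 6.86 in WT and at 7.24, 7.64 and 7.52 in IkL/L, a difference of 0.63 (0.28 to 0.97, adjusted p = 0.177). Il15ra, which presents IL-15 to neighbouring cells, lay at 6.91, 6.66 and 6.76 in WT and at 7.19, 7.44 and 6.97 in IkL/L, a difference of 0.42 (0.10 to 0.75, adjusted p = 0.391), and its other probe set gave 0.33 without overlap. The IL-21 receptor Il21r lay at 7.69, 7.68 and 7.83 in WT and at 7.60, 7.42 and 7.35 in IkL/L, all below WT (-0.28, adjusted p = 0.485).

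The other lymphoid receptors did not separate the groups. Il27ra, the chain that binds IL-27, lay at 7.94, 7.82 and 8.05 in WT and at 7.60, 7.93 and 7.55 in IkL/L (-0.24). Il18rap, the partner of Il18r1, lay at 8.50, 8.05 and 8.49 in WT and at 8.04, 8.24 and 8.17 in IkL/L (-0.20). Both overlapped between the groups, and Il12rb1 (-0.13) overlapped at 5.41 to 6.26. Il2ra, Il2rb and Il12rb2, which mark activated T or NK cells, were under the array medians in both groups. The median difference of the 11 lymphoid receptors was -0.13, and it ran from -0.25 to -0.04 with 1 array left out. The mean of the 8 measured T and NK cell markers was 5.24 to 5.43 in WT and 5.32 to 5.35 in IkL/L. The B lineage markers, of which 2 of 8 rose, had a mean of 5.07 to 5.16 in WT and 5.63 to 5.95 in IkL/L. Both group means lay under the array medians in 2 of the 8, and 2 had a mean of at least 6. Of these 8, 5 lay wholly above WT on the IkL/L arrays (Ms4a1 and Vpreb1, which rose, and Cd79b, Blk and Igll1), 6 had differences above 0, and 2, Pax5 (-0.22) and Ebf1 (-0.23), were below 0. The count that rose was 1 without WT 1 or without IkL/L 1 and 3 without WT 2. The part of these cells in the receptor values was not tested.

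**Figure D3:**
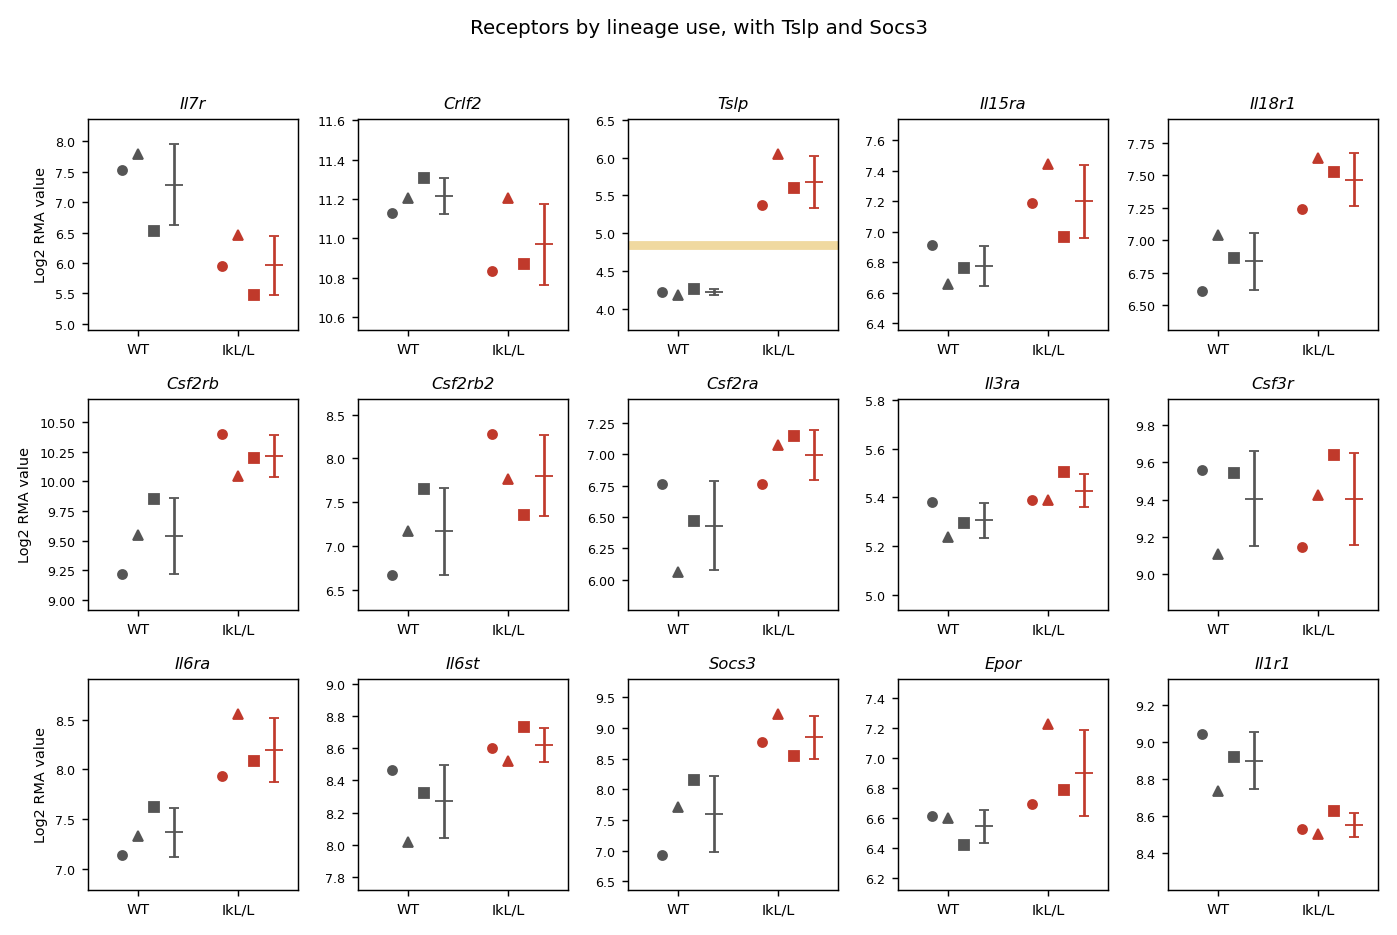
The values of 13 receptors, the ligand Tslp and the signalling inhibitor Socs3 in WT (grey) and IkL/L (red) arrays, as log2 RMA values on vertical axes that have their own range in each panel and no zero. Circles, triangles and squares are replicates 1, 2 and 3, bars show the mean and SD of 3 arrays, and the yellow band in the Tslp panel spans the array medians. Tslp passed the threshold; Il7r and Il1r1 are lower and Il15ra, Il18r1, Csf2rb, Il6ra, Il6st, Socs3, Epor and, by a small margin, Csf2ra and Il3ra higher on every IkL/L array without passing, and Csf3r, Crlf2 and Csf2rb2 overlap.

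Among the receptors of granulocytes, monocytes and mast cells, the chains of the common beta family were mostly on the higher side. Csf2rb, the common beta chain of the receptors for IL-3, IL-5 and GM-CSF, lay at 9.22, 9.55 and 9.85 in WT and at 10.39, 10.05 and 10.20 in IkL/L. The groups did not overlap, and the difference was 0.67 (0.28 to 1.07, adjusted p = 0.22). Its second probe set gave 0.55 with overlap. Csf2rb2, the IL-3-specific copy that lies next to Csf2rb on chromosome 15, lay at 6.68, 7.17 and 7.66 in WT and at 8.28, 7.77 and 7.36 in IkL/L, a difference of 0.63 (-0.03 to 1.30, adjusted p = 0.593) with overlap. The 2 genes are close copies, so that RNA of one may bind probes of the other and their values may not be independent. On both, WT 1 was the lowest and IkL/L 1 the highest array.

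The private alpha chains did not pass either. Csf2ra, which binds GM-CSF, lay at 6.77, 6.06 and 6.47 in WT and at 6.77, 7.08 and 7.14 in IkL/L, a difference of 0.56 (0.13 to 1.00, adjusted p = 0.396). WT 1 and IkL/L 1 were equal at this precision, so that the groups only just did not overlap, and its other probe set gave -0.07. Il3ra, the alpha chain for IL-3, gave 0.12 (-0.10 to 0.34) at 5.24 to 5.51, and Il5ra, that for IL-5 on eosinophils, gave -0.18 under the array medians. Over the 5 chains of this family the mean was 6.24 to 6.51 in WT and 6.62 to 6.80 in IkL/L.

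Csf3r, the receptor for G-CSF, which drives neutrophil output, lay at 9.56, 9.11 and 9.54 in WT and at 9.14, 9.43 and 9.64 in IkL/L, and the 95% interval of its difference ran from -0.39 to 0.39. Il1r2, a decoy for IL-1 found on neutrophils, gave -0.30 (-0.79 to 0.19), and the mast cell and T cell receptor Il9r was under the array medians. Markers of granulocyte and monocyte progenitors moved with genotype: 3 of 7 rose, all 7 lay above their WT values on every IkL/L array, and their mean was 10.59 to 11.05 in WT and 11.86 to 12.30 in IkL/L. With 1 array left out the count was 5 in the fit that lacked WT 3, 3 in that lacking IkL/L 2 and 1 in each of the others. Csf1r, itself a cytokine receptor and given below, is 1 of the 3 that rose. It passed in every fit with 1 array left out, so that it is the 1 marker in each of those others. The mean of the 7 measured markers of mast cells, basophils and eosinophils was 5.90 to 6.47 in WT and 6.83 to 7.53 in IkL/L, with 1 that rose. Their part in the values of Csf2rb and its partners was not tested.

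Epor, the erythropoietin receptor of red cell precursors, lay at 6.61, 6.60 and 6.42 in WT and at 6.69, 7.23 and 6.79 in IkL/L. The IkL/L values were above the WT values, IkL/L 2 by the most. The difference was 0.36 (0.01 to 0.71, adjusted p = 0.553), and 0.20 without IkL/L 2. Of 8 erythroid markers none passed in limma and 4 were higher at an unadjusted p under 0.05 (50%, beside 5.83% of all genes). The mean of the 8 was 5.98 to 6.30 in WT and 6.54 to 7.05 in IkL/L, highest in IkL/L 2 as well. The count that rose was 1 without WT 3, 2 without IkL/L 3 and 0 in the other fits with 1 array left out. It was 1 with a second quantile normalization, a mean of at least 5 or 6, an intensity trend, array weights or averaged probe sets.

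Of the broadly used receptors, the IL-6 receptor chains had higher values in IkL/L at the brightest probe set of each. Il6ra, which binds IL-6, lay at 7.15, 7.33 and 7.63 in WT and at 7.94, 8.56 and 8.09 in IkL/L. The groups did not overlap, and the difference was 0.83 (0.40 to 1.26, adjusted p = 0.152); its dimmer probe set gave 0.01. Il6st, which encodes gp130, the chain shared by the whole IL-6 family, lay at 8.47, 8.02 and 8.32 in WT and at 8.60, 8.52 and 8.73 in IkL/L, a difference of 0.35 (0.04 to 0.66, adjusted p = 0.497), and its other 3 probe sets gave -0.10 to 0.02. The inhibitor Socs3, induced through gp130 and STAT3, lay at 6.94, 7.72 and 8.16 in WT and at 8.78, 9.23 and 8.54 in IkL/L, a difference of 1.25 that did not pass (adjusted p = 0.193).

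Other gp130 partners were dim. Osmr, the oncostatin M receptor, lay at 3.49, 3.80 and 3.68 in WT and at 4.09, 4.01 and 3.84 in IkL/L (0.32, adjusted p = 0.466). Lepr, the leptin receptor, lay at 4.10, 4.40 and 4.29 in WT and at 3.98, 3.77 and 4.09 in IkL/L (-0.32, adjusted p = 0.509). Neither overlapped between the groups, but both lay under the array medians on every array, as did Lifr, the LIF receptor (0.02), and these values cannot be told from background. Il6ra, Il6st and Csf2rb did not pass in any of the 6 fits with 1 array left out, at 0.64 to 0.95, 0.22 to 0.45 and 0.51 to 0.83.

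None of the chains for IL-1 and IL-10 passed. Il1r1, the signalling receptor for IL-1, lay at 9.04, 8.73 and 8.92 in WT and at 8.53, 8.50 and 8.62 in IkL/L. All IkL/L values lay below the WT values, by a difference of -0.35 (-0.60 to -0.09, adjusted p = 0.361). Its accessory chain Il1rap gave 0.25 (-0.02 to 0.53) with overlap. Il10ra, which binds IL-10, lay at 6.68, 5.91 and 6.57 in WT and at 5.74, 5.96 and 5.71 in IkL/L, with WT 2 among the IkL/L values, and gave -0.59 (adjusted p = 0.415). Without WT 2 it gave -0.82 (0.0547), and its dimmer probe sets gave -0.38, without overlap, and -0.12. Il10rb, the chain shared by the IL-10 family, lay at 9.58, 9.57 and 9.49 in WT and at 9.31, 9.25 and 9.54 in IkL/L, with overlap, and gave -0.18 (-0.43 to 0.07).

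IL-4 and IL-13 receptors did not separate the groups. Il4ra, the chain that both ligands use, gave 0.20 (-0.16 to 0.56) at 7.11 to 7.73. Il13ra1 was under the array medians on all arrays, and so was Il20ra, a chain used outside blood. The group means of Il13ra2 were under them too, with WT 1 and WT 3 just above. Markers of stroma and endothelium had a mean of 5.87, 5.27 and 4.98 in WT 1, 2 and 3 and 5.09, 5.22 and 5.18 in IkL/L. Of the 9 markers 1 rose, and differences were above 0 in 4 and below 0 in 5, down to -1.43. At an unadjusted p under 0.05, 2 were higher (22.2%, beside 5.83% of all genes) and 1 was lower (11.1%, beside 5.35%). Without WT 3, 2 fell at an adjusted p under 0.05, and none fell in the other fits with 1 array left out. WT 1 was the highest array in these markers, the lowest WT array in Ghr and the highest in Il17rb, and the part of such cells in either was not tested.

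Of the receptor genes measured, 7 pairs are neighbours in the genome, and in no pair did both members pass. On chromosome 1, Il1r2 (-0.30) and Il1r1 (-0.35) are neighbours, and Il18r1 (0.63) and Il18rap (-0.20) are. On chromosome 2, Il2ra gave 0.08 and Il15ra 0.42, on chromosome 7, Il4ra gave 0.20 and Il21r -0.28, and on chromosome 15, Osmr gave 0.32 and Lifr 0.02. The pairs on chromosomes 6 (Il17re and Il17rc) and 15 (Csf2rb2 and Csf2rb) are given above.

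**Figure D4:**
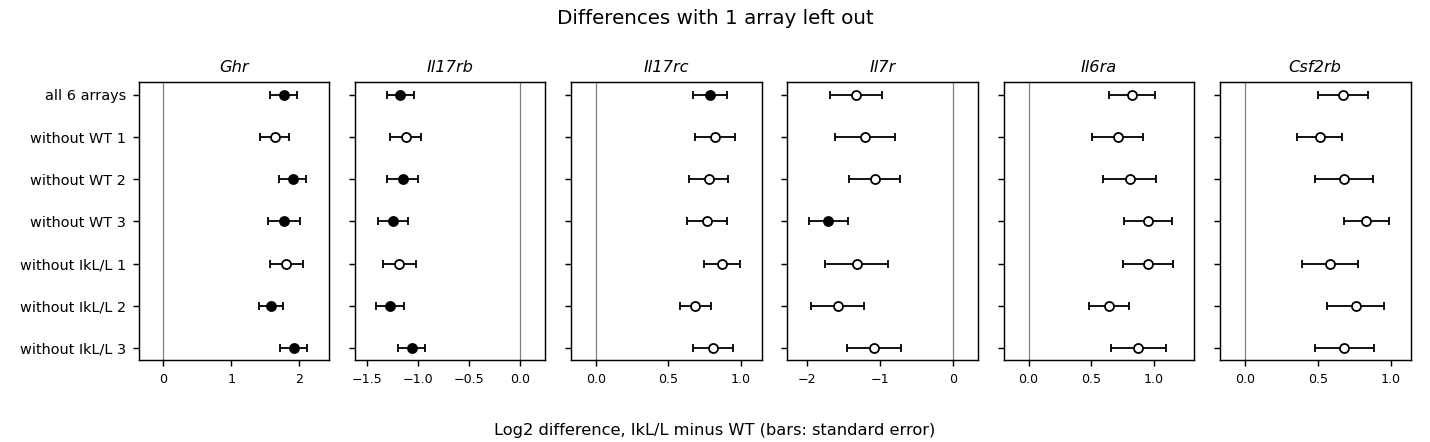
Log2 difference between IkL/L and WT (horizontal axis, range differs between genes) with its standard error (bars) for 6 receptors, with all arrays and with each array left out (vertical axis). Filled points have an adjusted p under 0.05 in limma. Ghr and Il17rb pass in 4 of 6 fits with 1 array left out, Il17rc in none, Il7r in 1, and Il6ra and Csf2rb in none, while the sign of all 6 is the same in every fit.

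Downstream of the receptors, none of the 10 measured Janus kinases and STATs passed in limma, and their differences ran from -0.29 to 0.29. An unadjusted p under 0.05 was found for 1 gene (10%, beside 11.2% of all genes). That gene was Stat2, which relays type I interferon signals, at 5.55, 5.42 and 5.19 in WT and 5.04, 5.11 and 5.14 in IkL/L (-0.29, adjusted p = 0.509). Stat5a, which relays IL-3, GM-CSF and erythropoietin signals, lay at 6.83, 7.30 and 7.41 in WT and 7.38, 7.59 and 7.44 in IkL/L (0.29). Jak3, the kinase of the common gamma chain, gave -0.27 and Stat4, used by IL-12, -0.09, both with overlap. Of 21 adaptors and inhibitors 1 fell, Traf3ip2, and none rose (4.76% called, beside 0.989% of all genes). Irak3, an inhibitor of IL-1 and IL-18 signalling, lay at 7.80, 7.69 and 7.74 in WT and 8.42, 8.59 and 8.20 in IkL/L, a difference of 0.66 (adjusted p = 0.0725), and the docking protein Gab2 gave 0.31 (0.276).

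Of 18 STAT target genes none passed, and 2 had an unadjusted p under 0.05 (11.1%, beside 11.2% of all genes). These were Socs3 and Id1 (0.40, with overlap, near the array medians). Socs2, a feedback inhibitor of growth hormone signalling, lay at 6.82, 6.76 and 7.49 in WT and at 8.14, 7.72 and 7.13 in IkL/L, with overlap. Its difference was 0.64 with a 95% interval from -0.00 to 1.29 (adjusted p = 0.566), and Socs1, an inhibitor of interferon signalling, gave 0.31 (0.578). Of 29 cytokine ligands, 1 rose (Tslp) and 2 fell (10.3% called, beside 0.989% of all genes), and 17 were under the array medians in both groups. Clcf1, a ligand of the gp130 family, fell from 7.36, 6.86 and 6.56 to 5.41, 5.78 and 5.68, a difference of -1.30 (adjusted p = 0.0425). Il12a, a subunit of IL-12, fell from 6.69, 6.61 and 6.44 to 5.83, 5.81 and 6.00, a difference of -0.70 (0.0425). Of the 6 fits with 1 array left out, both passed only without WT 3. With the replicate number as a block neither passed (0.117 for Clcf1 and 0.145 for Il12a), and with an intensity trend Il12a did not (0.0671). Il4 gave -0.41 under the array medians.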

How the data were processed

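Values are log2 intensities that the authors made with RMA (background correction, quantile normalization, probe set summary). RMA (no version) and R 2.8 are listed in the submitters' processing notes, and the authors' methods state joint normalization with thymocyte arrays, which the deposited log2 values alone do not show. Quantile normalization removes changes in total RNA. RMA gives no detection call. Precision is limited by having 3 arrays in each group. Each sample used 100 ng of total RNA.

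Of 45037 probe sets, 34945 had 1 gene in the platform annotation, 932 had several and 9160 were not listed. Symbols were updated by Entrez number (34741 matched) to the RefSeq table of GRCm38.p6. Genotypes were compared by two-sided moderated tests over all probe sets, with no covariate (limma 3.58.1, run under R 4.3.3), with Benjamini-Hochberg adjustment over them, and the code was tested on simulated data. Values are mean ± SD of 3 arrays, and intervals are 95% intervals of limma. No adjustment over a list and no set test was made.

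The members, the lineage-use groups and the lists were chosen with earlier results of these data known. Values on every array are given for receptors with an adjusted or unadjusted p under 0.05, the 3 with the highest mean in each group and Csf2rb and Csf2rb2. Up to 4 genes of each pathway list with the smallest p were named. Other genes were named for their role beside a receptor after values were seen. Alternatives were a second quantile normalization, centring, a mean of at least 5 or 6, limma with an intensity trend, array weights, the replicate number as a block, other readings of a gene and each array left out.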

Additional observations from a re-analysis of the deposited data

How the results depend on the processing

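Counts of called receptors are small, so that 1 gene moves them. Beside 2 higher and 1 lower, the replicate number as a block gave 1 (Ghr) and 2 (Il17rb and Il7r, adjusted p = 0.034), averaging all probe sets of a gene gave 1 higher (Il17rc missed, at 0.40 and 0.0519), and a mean of at least 6 gave 0 lower, since the fall of Il17rb itself takes its mean under 6. With 1 array left out there were 0 to 1 higher and 0 to 2 lower. The fits without WT 1 and IkL/L 1, in which no receptor passed, called 57 and 67 of all probe sets, beside 251 with all arrays. The labels do not name pairs, and deviations of same-numbered arrays correlated at 0.008, -0.112 and 0.079 over all probe sets. Such values cannot exclude pairing for single genes. The replicate number as a block moved the call count over all probe sets to 143. Among the named receptors, it changed no call other than those of Il17rc (0.109) and Il7r.

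With probe sets of a mean of at least 5 and at least 6, the median over the receptors went from 0.02 to 0.12 and 0.20, that of the granulocyte, monocyte and mast cell receptors from 0.06 to 0.34 and 0.60, and that of the receptors used mainly outside blood from 0.02 to 0.48 and 0.79. Fewer genes enter, and a gene's own difference helps decide whether it does (Ghr and Il17rc enter through IkL/L and Il17rb leaves), so that these medians say nothing of brighter receptors. The lymphoid median of -0.13 became -0.238 at a mean of at least 6, -0.245 with array weights, -0.043 when probe sets were averaged and -0.249 to -0.036 with 1 array left out. The median of the broadly used receptors, 0.13, ran from 0.026 to 0.318 with 1 array left out. The sign changed for Csf3r when arrays were centred on the median (0.017) and with 1 array left out (-0.147 to 0.129), and for Il17ra with 1 array left out (-0.012 to 0.318). The other 22 receptors with values on every array and alternatives run did not change sign, and the remaining receptors were not rerun.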

Other observations

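Receptors outside the list gave 1 call among 15 measured (6.67%, beside 0.989% of all genes). Csf1r, the M-CSF receptor, rose from 9.91, 10.04 and 9.84 in WT to 11.71, 11.54 and 11.82 in IkL/L, a log2 difference of 1.76 (adjusted p = 0.002 in limma), and passed with any 1 array left out. Csf1r is also in the list of granulocyte and monocyte progenitor markers, so that this call is counted in both places. Flt3, a receptor of early lymphoid and dendritic progenitors, lay at 10.97, 10.79 and 10.31 in WT and at 9.56, 10.05 and 9.80 in IkL/L, a difference of -0.88 that did not pass (0.132). Ifngr1, the ligand-binding chain for interferon gamma, gave 0.40 (0.308), and Crlf3 gave -0.27 (0.394). Among ligands, Il15 gave -0.56 (0.277, without overlap) and Il18 -0.49 (0.467, with overlap), whose receptor genes Il15ra and Il18r1 gave 0.42 and 0.63; these ligands were named after their values were seen.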
